A study of Mus musculus with 6 samples.

Results

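The 10 genes described here encode the mouse KMT2 and SET1 family of SET domain proteins and 3 subunits of their complexes, and were taken as all rows of a table of 22740 genes that carry these symbols. They are Kmt2a, Kmt2b, Kmt2c, Kmt2d, Kmt2e, Setd1a, Setd1b, Men1, Wdr5 and Ash2l, and all 10 passed the filter on low counts, as did 11921 genes in all. The members were chosen by function around Kmt2a, which was itself selected on its measured log2 fold change and adjusted p between the groups of this study. Its difference is therefore given as a description and supports nothing by itself.

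The cells were B16-F3, a cultured line of mouse melanoma, a tumour of pigment cells. Flow cytometry on the light scatter of intracellular melanin split the culture into a high-pigmented population (HPC) and a low-pigmented one (LPC), and no allele, drug or time point set the groups apart. Each group has 3 libraries, which read the 3' ends of polyadenylated transcripts, with between 14695822 and 22186743 counts each. The labels do not say whether replicates were separate cultures or sorts, so the spread between them may be technical. Melanocyte lineage markers (Dct, Tyrp1, Pmel, Mlana, Sox10 and Mitf) summed to between 31930 and 35952 CPM (a gene's counts scaled to library depth) in every library. The 6 immune markers summed to between 1.22 and 2.75 CPM in HPC and between 1.15 and 1.67 CPM in LPC, with 4 of them, Ptprc among these, at 0 in every library. The 4 endothelial markers summed to at most 0.36 CPM in HPC and 0.21 CPM in LPC, with 2 at 0 in every library, and the 4 keratinocyte markers were all at 0. The 5 fibroblast markers summed to between 13.7 and 23.9 CPM in HPC and between 8.10 and 28.0 CPM in LPC, none at 0 throughout. Only 2 of the 5 averaged over 1 CPM, Col1a2 at 13.6 CPM and Col1a1 at 2.91 CPM over the 6 libraries. Col3a1, Dcn and Lum averaged 0.021, 0.0094 and 0.062 CPM. The part of these cell types in the results was not tested. Tyr, the gene of the pigment enzyme tyrosinase, lay between 855 and 994 CPM in HPC and between 62.2 and 261 CPM in LPC, in the direction of the sort (edgeR adjusted p = 0.17, and 0.021 with the replicate number as a block). In bulk libraries such as these, fewer cells that express a gene and less RNA of it per cell cannot be told apart.

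Methylation of histone H3 at the lysine known as H3K4 marks active promoters and enhancers. KMT2A and KMT2B, the mammalian relatives of Drosophila trithorax, act with menin at a subset of promoters that includes HOX genes. KMT2C and KMT2D place the monomethyl mark at enhancers, and SETD1A and SETD1B the trimethyl mark broadly at active promoters. WDR5 and ASH2L belong to the core that all of these enzymes need for full activity, whereas KMT2E has a SET domain but is not known as an active H3K4 methyltransferase. KMT2A is best known from leukaemias in which translocations fuse it to other proteins.

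Promoter sequence is shown for Kmt2a and Kmt2d, the most abundant members, one with and one without a difference between the groups. Both come from RefSeq on GRCm38.p6, on the minus strand, and run 5' to 3' from 250 bases before to 50 bases after the start site. The Kmt2a window is chr9:44881240-44881539 and the Kmt2d window chr15:98871156-98871455. Capitals mark the GC box, the letters GGGCGG or their reverse complement CCGCCC.
Kmt2a: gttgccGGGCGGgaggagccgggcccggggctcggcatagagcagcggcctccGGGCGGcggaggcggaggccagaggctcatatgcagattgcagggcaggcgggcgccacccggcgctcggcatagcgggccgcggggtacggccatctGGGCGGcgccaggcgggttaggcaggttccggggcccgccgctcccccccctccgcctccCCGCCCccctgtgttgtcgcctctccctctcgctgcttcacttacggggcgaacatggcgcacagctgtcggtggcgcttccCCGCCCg
Kmt2d: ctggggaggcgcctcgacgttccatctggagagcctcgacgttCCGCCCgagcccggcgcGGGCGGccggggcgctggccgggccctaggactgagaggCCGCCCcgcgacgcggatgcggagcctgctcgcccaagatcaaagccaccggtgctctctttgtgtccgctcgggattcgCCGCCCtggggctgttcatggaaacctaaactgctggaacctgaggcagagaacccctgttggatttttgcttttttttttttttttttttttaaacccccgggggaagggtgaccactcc
The Kmt2a window holds 5 GC boxes and the Kmt2d window 4, and 35.7% of the 32851 RefSeq promoter windows of this length hold at least 1. Neither window holds the E-box CACGTG, the CCAAT box CCAAT, the cyclic AMP element TGACGTCA or the TATA box TATAAA on either strand. These letters occur in 7.15%, 37.4%, 1.79% and 13.6% of all windows. With 36 CpG dinucleotides in 300 bases, the Kmt2a window holds more than 93.8% of all windows do. The Kmt2d window holds 27 CpG, and the median of all windows is 7. The last 35 bases of the Kmt2a window are coding: the annotated start codon lies at chr9:44881272-44881274, and 1 of the 5 GC boxes falls inside the coding part. Of the 10 genes, 6 had a promoter entry (Kmt2a, Kmt2c, Kmt2d, Setd1a, Men1 and Wdr5). The window of Kmt2c, with 56 CpG and 12 GC boxes, was the richest of these in both, and that of Setd1a held no GC box.

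Kmt2a, chr9:44803355-44881296 on the minus strand of GRCm38 (ENSMUSG00000002028), was lower in HPC. HPC libraries 1, 2 and 3, numbered by replicate, had 297, 225 and 206 CPM. LPC libraries 1, 2 and 3 had 744, 599 and 810 CPM. All 3 LPC libraries lay above all 3 HPC libraries, and the lowest LPC library stood at 2.02 times the highest HPC library. The means were 243 ± 48.0 CPM for HPC and 718 ± 108 CPM for LPC (SD over 3 libraries, as throughout). The fitted level was 2.96-fold higher in LPC, with a 95% interval of 2.24 to 3.92 from the edgeR quasi-likelihood fit (log2 fold change of HPC over LPC -1.56, SE 0.18). Counts of Kmt2a ran from 4043 to 12098 per library, so counting error alone is at most 1.57% of a library's value. The spread between replicates was larger, with an SD of 19.8% of the mean in HPC.

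**Figure D1:**
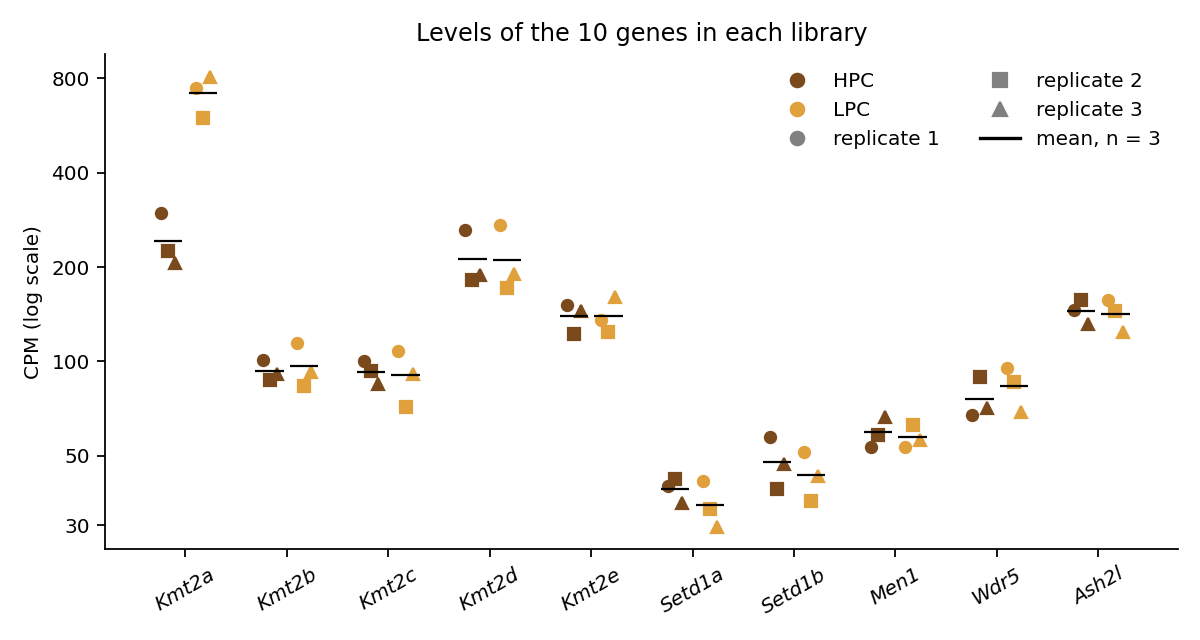
Level of each of the 10 genes in CPM (log axis) in the 3 HPC and 3 LPC libraries, with the marker shape giving the replicate number and the bar the mean of 3 libraries. For Kmt2a the HPC points lie between 206 and 297 CPM and the LPC points between 599 and 810 CPM, while the points of the 2 groups overlap for the other 9 genes.

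Between libraries of the same replicate number, the LPC level of Kmt2a was 2.51, 2.66 and 3.94 times the HPC level for numbers 1, 2 and 3. The direction was shared by all 3, and number 3 had the largest ratio with the lowest HPC and the highest LPC library. The log2 fold change ran from -1.46 without HPC replicate 3 to -1.73 without HPC replicate 1. It stayed between -1.55 and -1.59 under the other scalings, without the filter, with DESeq2 and with limma-voom, and was -1.57 with the replicate number as a block.

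Of the 10 genes, 1 passed the test over all genes (edgeR quasi-likelihood, adjusted p under 0.05), namely Kmt2a as lower in HPC, where 0.0419% of all tested genes passed as lower. Since Kmt2a was chosen for this contrast, nothing is read from that count. Its adjusted p of 0.046 in edgeR lay close to the threshold. The call was lost, at edgeR adjusted p from 0.10 to 0.18, without HPC replicate 1, 2 or 3 or LPC replicate 2. With the block, where 1.1% of tested genes were called lower in HPC, Kmt2a passed (edgeR adjusted p = 0.0077) and again no other member did. It was also called lower with DESeq2, as were 0.849% of genes, and with limma-voom, as were 0.0419%. The limma-voom adjusted p of 0.0496 also lay close to the threshold. The sizes of change of 66 tested genes lay further in the direction of LPC than that of Kmt2a.

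Kmt2b, the closest relative of Kmt2a, did not differ beyond the spread between libraries. It measured 101, 87.5 and 91.1 CPM in the HPC libraries, in replicate order, against 114, 83.4 and 92.9 CPM in the LPC libraries. The groups overlapped, and the HPC over LPC ratio was 0.96 with a 95% interval of 0.77 to 1.20. The interval leaves room for a modest difference in either direction, but not for one of the size measured for Kmt2a.

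The enhancer enzymes Kmt2c and Kmt2d also overlapped between groups. Kmt2d measured 263, 182 and 189 CPM in the HPC libraries against 273, 171 and 190 CPM in the LPC libraries. Its levels followed the replicate number more than the pigment: both libraries numbered 1 were high, and the ratio of the group levels was 1.00 (95% interval 0.72 to 1.40). Kmt2c measured 100, 93.4 and 84.7 CPM in the HPC libraries against 108, 71.6 and 91.2 CPM in the LPC libraries, also highest in the libraries numbered 1. Its LPC libraries spanned a wider range than its HPC libraries, and the ratio was 1.03 (95% interval 0.80 to 1.32).

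Setd1a and Setd1b, the promoter trimethylation enzymes, were the least abundant members. Setd1a measured 40.1, 42.2 and 35.2 CPM in the HPC libraries against 41.4, 33.8 and 29.7 CPM in the LPC libraries. Setd1b measured 57.4, 39.2 and 47.1 CPM in the HPC libraries against 51.6, 35.9 and 43.3 CPM in the LPC libraries. Setd1b was slightly higher in the HPC library of every replicate number, by 0.15, 0.13 and 0.12 on the log2 scale for numbers 1, 2 and 3, and was the only one of the 9 genes other than Kmt2a with 1 sign in all 3. The fitted log2 fold changes were 0.17 (SE 0.15) for Setd1a and 0.14 (SE 0.18) for Setd1b, with 95% intervals of -0.19 to 0.52 and -0.28 to 0.55 that include 0.

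Kmt2e, the SET domain protein without known H3K4 methyltransferase activity, measured 151, 122 and 145 CPM in the HPC libraries against 135, 124 and 161 CPM in the LPC libraries. Its log2 fold change was -0.0087 (SE 0.14). The groups overlapped throughout, with a 95% interval of 0.80 to 1.24 for the ratio.

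The complex subunits overlapped between groups as well. Men1, which encodes menin, the partner that bridges KMT2A and KMT2B to chromatin, measured 53.5, 58.2 and 66.6 CPM in the HPC libraries against 53.3, 62.5 and 56.2 CPM in the LPC libraries. Its ratio of 1.04 had a 95% interval of 0.85 to 1.26. Wdr5, the WD repeat subunit that docks the enzymes on the core, measured 67.7, 89.3 and 70.9 CPM in the HPC libraries against 95.3, 86.0 and 69.2 CPM in the LPC libraries. The lower mean of Wdr5 in HPC came from the libraries numbered 1, where the log2 difference was -0.49, against 0.055 and 0.035 in numbers 2 and 3. Ash2l, which stimulates the catalytic subunit, measured 146, 157 and 131 CPM in the HPC libraries against 157, 145 and 124 CPM in the LPC libraries, with a ratio of 1.02 (95% interval 0.84 to 1.25).

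**Figure D2:**
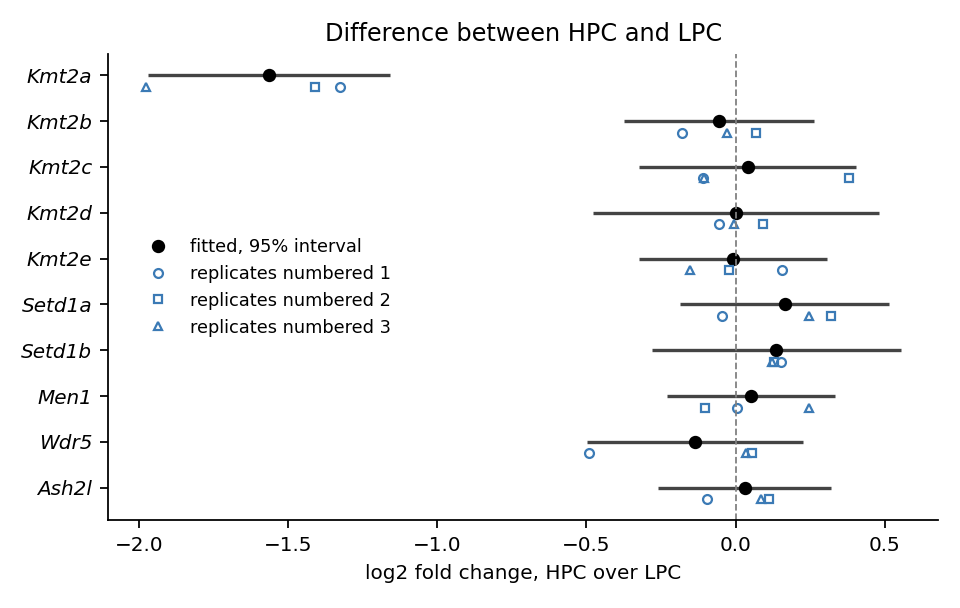
Difference between the groups for each of the 10 genes on the log2 scale, with the fitted value and its 95% interval in black and the difference between libraries of the same replicate number as open symbols. Kmt2a lies at -1.56, with replicate differences from -1.98 to -1.32, and the intervals of the other 9 genes all include 0.

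For the 9 genes other than Kmt2a, fitted log2 fold changes ran from -0.14 to 0.17, of which 6 were positive and 3 negative. These signs are not firm: over the other scalings and tools, no filter, the block and fits without 1 library, between 3 and 7 of the 9 were positive, and 7 (all but Setd1a and Wdr5) changed sign at least once. Their 95% intervals together spanned 0.71- to 1.47-fold. Groups overlapped in all 9, and over all tested genes 14.3% had groups that did not. None of the 9 passed at an unadjusted p under 0.05 (edgeR, lowest 0.31), where 9.37% of all tested genes did. With only 9 genes, neither this count nor that of overlaps can be told apart from the share over all genes. None of the 9 passed with the block (lowest edgeR adjusted p = 0.44), with DESeq2 or with limma-voom. The median of the 10 genes was 0.016, beside -0.0091 over all tested genes, and 90.2% of all tested genes had a log2 fold change within 0.5 of 0.

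Read at transcript ends, a count is not expected to grow with transcript length. Levels of these genes are therefore compared in CPM without division by length. Their longest coding transcripts run from 2890 bases for Wdr5 to 19823 bases for Kmt2d. Whether reads also began inside transcripts was not tested, so the order between genes is uncertain to that extent. In LPC the order from high to low was Kmt2a, Kmt2d, Ash2l, Kmt2e, Kmt2b, Kmt2c, Wdr5, Men1, Setd1b and Setd1a, and it was the same in HPC. In LPC the range of Kmt2a lay clear of that of Kmt2d, at 211 ± 54.2 CPM. In HPC the 2 ranges overlapped, at 243 ± 48.0 CPM for Kmt2a and 212 ± 44.6 CPM for Kmt2d, although Kmt2a was the higher in each of the 3 libraries. Neighbours whose ranges overlapped in both groups were Ash2l and Kmt2e, Kmt2b and Kmt2c, Kmt2c and Wdr5, and Setd1b and Setd1a.

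Among the 7 SET domain genes, Kmt2a therefore held a different share in the 2 groups. It took 29.4%, 28.5% and 25.8% of their summed CPM in the 3 HPC libraries, and 50.7%, 53.5% and 57.1% in the 3 LPC libraries. The 7 summed to 866 ± 124 CPM in HPC, below the 1335 ± 189 CPM of LPC. Without Kmt2a the other 6 summed to 624 ± 77.8 CPM in HPC and to 617 ± 102 CPM in LPC, with overlapping ranges. The ratio of Kmt2a to Men1, its partner, was 4.17 ± 1.26 in HPC and 12.7 ± 2.67 in LPC. The ratio of Kmt2a to Kmt2b was 2.59 ± 0.34 in HPC and 7.47 ± 1.14 in LPC. These shares and ratios restate the difference in Kmt2a and carry no test.

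**Figure D3:**
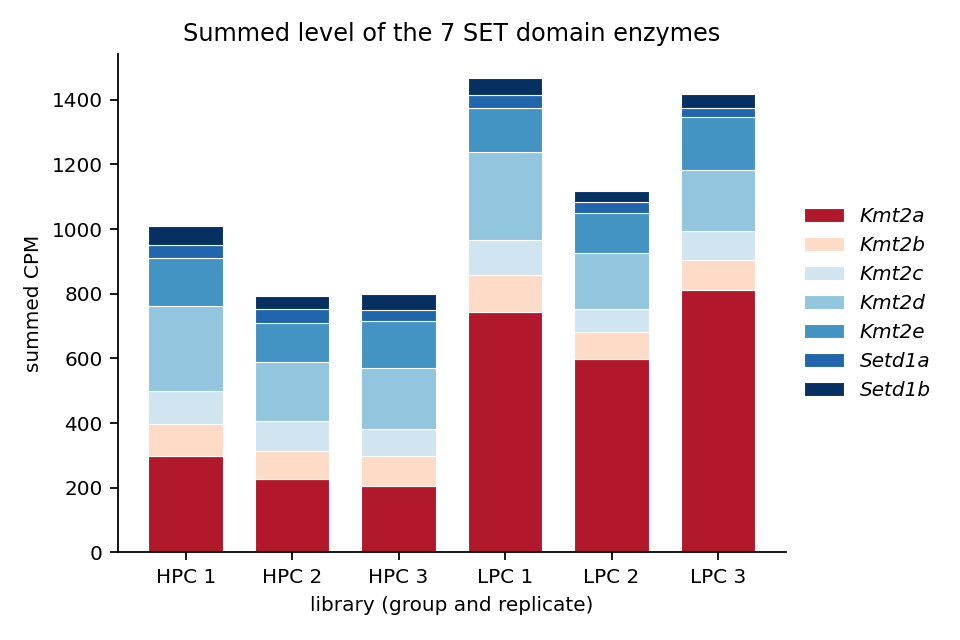
Stacked CPM of the 7 SET domain genes in each library, with Kmt2a at the base in red and no error bars because each bar is 1 library. The Kmt2a segment takes 25.8% to 29.4% of the HPC bars and 50.7% to 57.1% of the LPC bars, and the remaining segments sum to 520 to 724 CPM in every library.

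Annotation bears on how these counts can be read. On GRCm38 the plus strand carries Kmt2e (chr5:23434441-23504235), Setd1a (chr7:127776670-127800122), Setd1b (chr5:123142193-123168629), Men1 (chr19:6334979-6340891) and Wdr5 (chr2:27515157-27536535). The minus strand carries Kmt2b (chr7:30568858-30588726), Kmt2c (chr5:25271798-25498783), Kmt2d (chr15:98831669-98871204) and Ash2l (chr8:25815996-25847694), beside Kmt2a. In GENCODE M21, Kmt2a overlaps Gm48314 on its own strand (chr9:44856437-44859175, a transcribed region without an assigned type) and the antisense gene AC061963.1 at its start. Neither is a row of the table, which holds protein-coding genes throughout, so reads from them could have been counted as Kmt2a or left out. Kmt2e overlaps Srpk2 on the opposite strand at its 3' end, where these libraries read. Srpk2, a kinase gene, measured 147, 134 and 150 CPM in the HPC libraries against 133, 124 and 149 CPM in the LPC libraries, and the use of strand in counting is not given in the sources used here, so these counts are uncertain for both genes. Setd1a shares its strand with the protein-coding gene model Gm49388, and Setd1b lies within the span of Gm26745 on the opposite strand. The longest coding transcript of Kmt2a, 16470 bases long, holds 1 run of at least 10 adenines, as do those of Kmt2e, Setd1a and Setd1b. Oligo-dT can prime on such runs, and whether reads began there was not tested, since the table does not give read positions.

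Genes that work beside the 10 were followed in 6 lists with 125 genes, of which 98 passed the filter. None of the 98 passed in the unblocked edgeR fit, with DESeq2 or with limma-voom. In the first of these 7 had an unadjusted p under 0.05, as did 9.37% of all tested genes. With the block 1 passed, as lower in HPC, beside the 1.1% of all tested genes given above. Of the 98, 95 had a log2 fold change within 0.5 of 0, and 18 (18.4%) had groups that did not overlap, beside 14.3% over all tested genes.

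Other subunits of the SET1 and MLL complexes numbered 13, all tested. None passed (edgeR, 0 at an unadjusted p under 0.05, against 9.37% of all tested genes). Log2 fold changes were positive for 6 and negative for 7, and the median was -0.020. Hcfc1, the host cell factor that several of these complexes share, averaged 270 ± 22.7 CPM in HPC against 270 ± 69.1 CPM in LPC. Wdr82, the subunit particular to the SETD1 complexes, averaged 137 ± 3.29 and 147 ± 15.6 CPM. Both fitted differences were smaller in size than their SE (log2 fold changes 0.0015 and -0.10, SE 0.18 and 0.11).

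Of 10 tested H3K4 demethylases and partners, none passed (edgeR, 1 at an unadjusted p under 0.05, against 9.37% of all tested genes). The median log2 fold change was 0.054, with 6 positive and 4 negative. Rcor1, the CoREST scaffold of the demethylase KDM1A, averaged 222 ± 22.5 CPM in HPC against 209 ± 8.19 CPM in LPC. Kdm5a, which encodes an eraser of the trimethyl mark, averaged 199 ± 6.60 and 182 ± 18.7 CPM. Kdm2b, named after its values were seen, had non-overlapping groups at 33.9 ± 2.20 and 27.6 ± 2.09 CPM and an edgeR adjusted p of 0.51.

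Genes listed as histone lysine methyltransferases outside the 10 had 26 tested members. None passed (edgeR, 0 at an unadjusted p under 0.05, against 9.37% of all tested genes). The list includes some with reported H3K4 activity such as Setd7. Its median log2 fold change was 0.059, with 16 positive and 10 negative. Ehmt2, the euchromatic H3K9 enzyme also called G9a, averaged 356 ± 44.9 CPM in HPC against 357 ± 21.8 CPM in LPC. Nsd2, an H3K36 enzyme listed in the table as Whsc1, averaged 363 ± 52.7 and 328 ± 83.7 CPM. Fold changes of the list ran from -0.30 to 0.24 on the log2 scale.

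Readers of H3K4 methylation numbered 13, and none passed (edgeR, 0 at an unadjusted p under 0.05, against 9.37% of all tested genes). The median log2 fold change was -0.024, with 5 positive and 8 negative. Bptf, a chromatin remodelling subunit with a finger for the trimethyl mark, averaged 207 ± 7.17 CPM in HPC against 182 ± 29.2 CPM in LPC. Kdm4a, a demethylase with a reader domain for that mark, averaged 149 ± 11.7 and 152 ± 27.3 CPM.

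Fusion partners of KMT2A and genes of transcription elongation had 14 tested members, of which none passed (edgeR, 3 at an unadjusted p under 0.05, against 9.37% of all tested genes), with a median log2 fold change of 0.0025, 9 positive and 5 negative. Aff4, the scaffold of the super elongation complex, averaged 476 ± 29.4 CPM in HPC against 364 ± 43.2 CPM in LPC. Its groups did not overlap, but it passed neither without the block (log2 fold change 0.39, SE 0.12, edgeR adjusted p = 0.37) nor with it (edgeR adjusted p = 0.099). Mllt1, a reader of acetylated histones in the same complex, averaged 149 ± 13.2 and 149 ± 14.9 CPM.

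The list of HOX cluster genes and other genes known as targets of KMT2A or menin leaned towards LPC, but no member passed in the unblocked edgeR fit, where 3 had an unadjusted p under 0.05, against 9.37% of all tested genes. Log2 fold changes were negative in 18 of 22 tested members (median -0.20), where 51.8% of all tested genes were negative. Of the 22, 16 were HOX genes, which share clusters and need not vary independently, and 13 of these were negative. Whether the lean is linked to Kmt2a was not tested. Hoxd13, the most 5' gene of its cluster, measured 9.94, 10.9 and 6.66 CPM in the HPC libraries against 16.1, 16.4 and 14.3 CPM in the LPC libraries. The groups did not overlap, and Hoxd13 was lower in HPC with the block (log2 fold change -0.79, edgeR adjusted p = 0.044) but did not pass without it (-0.77, SE 0.21, edgeR adjusted p = 0.28). Cdkn1b, a cell cycle inhibitor gene known as a menin target, averaged 172 ± 36.9 and 184 ± 44.6 CPM with overlapping groups.

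Groups did not overlap for 6 of these 22 genes (27.3%, beside 14.3% over all tested genes), 5 of them lower in HPC (7.18% of all tested genes). Beside Hoxd13 they included Hoxd3, Meis2, Pbx3 and Cdkn2c, named after their values were seen. In the other lists, groups did not overlap for 4 of 14 fusion partner and elongation genes and 1 of 13 other complex subunits. The same held for 2 of 10 demethylases and partners, 3 of 26 other methyltransferases and 2 of 13 readers. Meis2, a homeobox cofactor of HOX proteins, averaged 73.6 ± 6.76 CPM in HPC against 87.9 ± 5.71 CPM in LPC. Cdkn2c, another inhibitor gene known as a menin target, went the other way, at 62.3 ± 3.36 and 44.5 ± 5.78 CPM (edgeR adjusted p = 0.25). Most HOX genes were scarce: of 39 listed, 16 passed the filter, 9 of the A, 5 of the B and 2 of the D cluster, with mean levels from 1.50 to 26.7 CPM. No gene of the C cluster passed the filter, and 3 of its 9 genes in the table had any count.

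**Figure D4:**
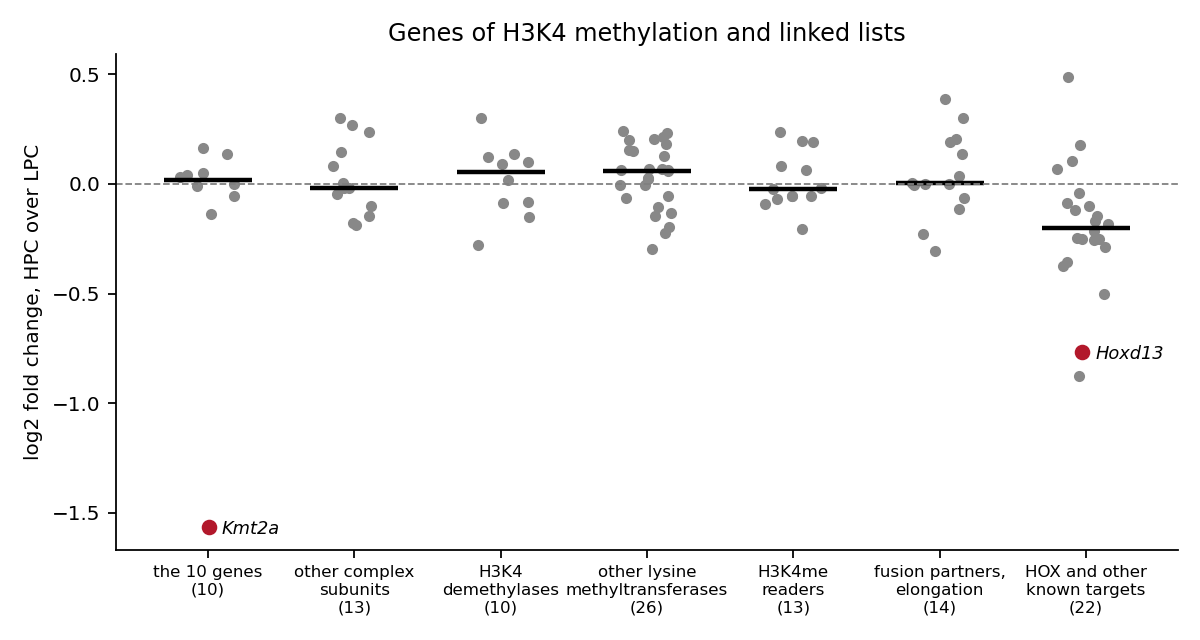
Log2 fold change of HPC over LPC for every tested gene of the 10 and of the 6 lists, with the number tested in brackets, the black bar at the list's median and red points for genes called with the replicate block. Kmt2a at -1.56 and Hoxd13 at -0.77 are the red points, and the medians of the 6 lists lie between -0.20 and 0.059.

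The genes whose levels followed those of Kmt2a most closely were sought among 9887 tested genes with a mean of at least 5 CPM. Likeness was the root mean square difference between log2 CPM profiles over the 6 libraries, each centred on its own mean. The nearest were Nfix at 0.23, Myc at 0.27, Pde3a at 0.27, Rgs7bp at 0.30 and Ramp2 at 0.31. Such a search returns genes with the same group difference by construction, and 6 libraries hold few degrees of freedom, so their values are a description and support nothing. Nfix and Myc were called in edgeR without and with the block (adjusted p 0.046 and 0.0077 for both). In edgeR the other 3 passed with the block and not without it: the edgeR adjusted p went from 0.071 to 0.013 for Pde3a, from 0.13 to 0.025 for Rgs7bp and from 0.13 to 0.019 for Ramp2. Without HPC replicate 1, 2 or 3 or LPC replicate 2, neither Nfix nor Myc passed (edgeR adjusted p from 0.14 to 0.23), and Myc missed with RLE scaling (edgeR adjusted p = 0.050).

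Nfix, a transcription factor gene of the nuclear factor I family, measured 10.2, 9.16 and 11.7 CPM in the HPC libraries against 27.9, 25.6 and 32.6 CPM in the LPC libraries. Like Kmt2a, it was highest in LPC replicate 3 and lowest in LPC replicate 2 within that group. Within HPC the orders differed, as Nfix was highest in replicate 3, where Kmt2a was lowest. Myc, the growth-promoting transcription factor, measured 34.6, 36.2 and 28.5 CPM in the HPC libraries against 83.0, 68.9 and 71.9 CPM in the LPC libraries. Pde3a, a phosphodiesterase gene, averaged 11.6 ± 0.39 and 25.9 ± 3.71 CPM. Rgs7bp, which encodes a binding partner of RGS proteins, and Ramp2, a receptor accessory protein gene, were low, at 3.40 ± 0.20 and 7.92 ± 1.14 CPM and at 5.87 ± 1.14 and 13.5 ± 0.81 CPM. All 5 were lower in HPC by less than Kmt2a, from 2.22- to 2.78-fold. The other 9 members were far from this pattern, with differences from 0.78 for Kmt2b to 0.91 for Setd1a.

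**Figure D5:**
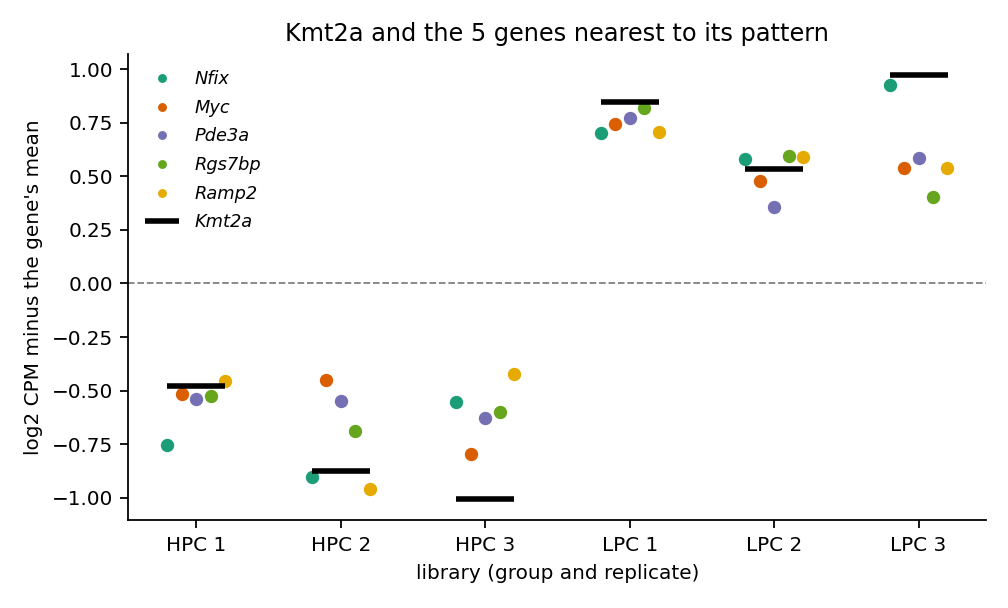
Log2 CPM of Kmt2a (black bars) and of the 5 genes nearest to its pattern (coloured points), each minus its own mean over the 6 libraries. All 6 genes lie below 0 in the 3 HPC libraries and above 0 in the 3 LPC libraries.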

How the data were processed

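RNA of 3 HPC and 3 LPC samples was sequenced with a 3' mRNA kit (QuantSeq 3' mRNA-Seq FWD) on an Illumina NextSeq, per the labels' protocols. The submitters' processing notes name STAR and GRCm38, and no source used here gives the counting program, its annotation, its strand setting or any use of molecular identifiers. The authors deposited whole-number counts per gene, not normalized, for 22740 protein-coding genes, and columns were assigned by name. Intervals and errors from counts cover counting only as far as reads are independent molecules.

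After edgeR's filterByExpr, 11921 genes were scaled by TMM and tested with the quasi-likelihood F-test (edgeR 4.0.16, limma 3.58.1, DESeq2 1.42.0, R 4.3.3), on group alone, which leaves 4 residual degrees of freedom. Benjamini-Hochberg adjustment covered all tested genes. The SE follows from the F statistic and 95% intervals from the t distribution with the moderated degrees of freedom. CPM values used TMM factors, and log2 CPM a prior count of 2. The code was tested on simulated data. Members and lists were chosen with earlier results of these data known. From each list the text names up to 3 genes called with or without the block, filled to 2 with the most abundant, and others as said. List symbols were matched by name or, for 7, by the GENCODE M21 name of the gene ID, and 1 of 125 was not matched. That release holds 21842 of the 22740 IDs.

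Both groups carry replicate numbers 1 to 3. Deviations from group means correlated over 11921 genes at 0.42, 0.35 and 0.65 for libraries numbered 1, 2 and 3. All 3 lay above the minimum of 0.1. HPC library 2 and LPC library 1 also lay above it, at 0.20, but each library correlated best with that of its own number. The numbers were therefore taken as pairs from the data, not from the labels. The blocked fit, with the replicate number as a term, has 2 residual degrees of freedom and is given where it changes a call. Other alternatives were RLE, upper quartile and library size scaling, no filter, DESeq2, limma-voom and leaving out libraries.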

Additional observations from a re-analysis of the deposited data

How the results depend on the processing

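Over all genes 5 passed, against 28 with no filter, 230 with DESeq2 and 301 with the replicate block. The count ran from 0 to 43 when 1 library was left out. With the block it was 2947, 0 and 196 without both libraries numbered 1, 2 or 3, a setting added after seeing the data that leaves 1 residual degree of freedom and carries little weight. The number of the 10 genes called, 1, ran from 0 to 1 without 1 library and was 2 (Kmt2a and Setd1a) and 0 with the block without the libraries numbered 1 and 2. The lists had 0 called in all settings without the block. In the block without libraries numbered 1 they had 4 for complex subunits, 2 for demethylases, 8 for other methyltransferases, 3 for readers, 3 for elongation genes and 4 for HOX and other targets, and the target list had 1 with the replicate block on all libraries. Of the genes named with values, that block also added the calls of Hoxd13, Pde3a, Rgs7bp, Ramp2 and the sort gene Tyr.

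Among the 10 genes, 7 changed sign in the planned settings, and Wdr5 in an added one. Kmt2d was -0.026 with upper quartile and -0.020 with library size scaling, and Kmt2e 0.0047 with no filter. Without 1 library the log2 fold change ran from -0.14 to 0.082 for Kmt2b, -0.091 to 0.19 for Kmt2c, -0.18 to 0.23 for Kmt2d, -0.078 to 0.10 for Kmt2e, -0.0078 to 0.28 for Setd1b, -0.037 to 0.13 for Men1 and -0.057 to 0.11 for Ash2l. With the block and without both libraries of 1 number, Kmt2b was 0.033 and Wdr5 0.057 (number 1), Kmt2c -0.11, Kmt2d -0.030, Kmt2e 0.0019 and Ash2l -0.0063 (number 2), and Kmt2e 0.067 and Men1 -0.049 (number 3). None of these 8 was called in any setting run.

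Of other genes, Hcfc1 was -0.026 with upper quartile and -0.018 with library size scaling, Mllt1 -0.026 and -0.015, and Ehmt2 0.0078 with no filter and 0.0011 with DESeq2. Without 1 library the log2 fold change ran from -0.11 to 0.23 for Hcfc1, -0.11 to 0.053 for Ehmt2, -0.16 to 0.083 for Kdm4a, -0.075 to 0.082 for Mllt1 and -0.26 to 0.11 for Cdkn1b. None of these 5 passed with all 6 libraries or without 1 library. The cause of these changes was not tested.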
